A study of Mus musculus with 23 samples.

Results

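Transcript levels of 10 genes of the amino acid stress response were described in tumors of the IL6Myc mouse, a model of multiple myeloma, and in B cells of wild-type mice. The genes were ATF4, DDIT3, TRIB3, CHAC1, ASNS, PHGDH, PSAT1, PSPH, SHMT2 and MTHFD2, taken by name from a table of mouse values listed under human gene symbols. Each name had 1 entry, all 10 passed the filter on low values, and they are 10 of 11637 genes tested. The 14 tumor libraries came from IL6Myc mice and are labelled as malignant plasma cells, 7 from mesenteric lymph node (MLN) tumors and 7 from spleen tumors. Mice 1610, 1611 and 1613 to 1616 gave both tumors, mouse 1609 the MLN tumor alone and mouse 1612 the spleen tumor alone, so the tumors stand for 8 mice. Activated B cells (5 libraries) were wild-type BALB/c splenic B cells kept for 16 hours with LPS, a bacterial lipopolysaccharide that drives B cells to divide, at 1 µg/ml. Quiescent B cells (4 libraries) were the untreated wild-type BALB/c counterpart. All samples went through negative magnetic selection, in which cells of other types are bound and B lineage cells are left over. Animal ages and the promoters behind the IL6 and Myc transgenes are not stated in the labels, and the labels do not tell if each control library is a different animal. Where control libraries share an animal, p-values measure the spread between these libraries, which may be technical.

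ATF4 is a transcription factor whose protein is made mainly when the translation factor eIF2 is phosphorylated, as happens when amino acids run short or unfolded protein collects in the endoplasmic reticulum. It then switches on genes for making and importing amino acids. ASNS makes asparagine. PHGDH, PSAT1 and PSPH turn a glycolytic intermediate into serine, and the mitochondrial enzymes SHMT2 and MTHFD2 pass a carbon of serine to folate for nucleotide synthesis. Plasma cells secrete large amounts of antibody and therefore load the endoplasmic reticulum. Because ATF4 protein is set largely by translation, its transcript level is not a measure of the protein.

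ATF4 pairs with C/EBP proteins on a composite element whose core reads TGATGNAA. The window from 250 bases before to 50 bases after the transcription start was searched on both strands in RefSeq promoters of mouse build GRCm38.p6, in which all 10 genes were found, with 11 promoters among them. The core was present in the promoters of CHAC1, TRIB3 and ASNS, against 3.97% of the 32851 promoters of the table. Their sequences are shown because they hold the match. The same 3 genes had the largest log2 changes between activated and quiescent B cells in edgeR, a ranking that rests on the scale. A link between match and change was not tested. Capitals mark the match.
CHAC1: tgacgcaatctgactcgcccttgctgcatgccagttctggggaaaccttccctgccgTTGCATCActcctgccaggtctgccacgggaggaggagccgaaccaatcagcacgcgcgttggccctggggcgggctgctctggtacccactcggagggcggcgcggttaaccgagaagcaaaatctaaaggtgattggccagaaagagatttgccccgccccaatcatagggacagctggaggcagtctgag
TRIB3: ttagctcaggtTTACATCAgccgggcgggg
ASNS: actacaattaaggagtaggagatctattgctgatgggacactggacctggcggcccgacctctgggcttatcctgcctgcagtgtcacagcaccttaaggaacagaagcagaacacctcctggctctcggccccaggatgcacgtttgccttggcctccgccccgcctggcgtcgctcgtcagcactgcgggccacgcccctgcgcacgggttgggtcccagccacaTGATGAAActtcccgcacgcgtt
The CHAC1 stretch lies at chr2:119350992-119351241 on the plus strand and covers the 250 bases before the start. Its match begins 193 bases before the start and reads TGATGCAA on the opposite strand. The TRIB3 stretch is 30 bases at chr2:152344028-152344057 on the minus strand, with a match that begins 15 bases after the start and reads TGATGTAA on the opposite strand. The ASNS stretch lies at chr6:7693210-7693459 on the minus strand, with TGATGAAA 23 bases before the start on the strand of the gene. The E-box CACGTG, the sequence that MYC and related factors bind, was in none of the 10 genes' windows and in 7.15% of all promoters. A match describes the letters of a window, and absence covers these windows alone.

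In outline, 7 of the 10 transcripts were higher in tumors than in quiescent B cells, where 36.9% of all genes tested were higher. All 10 were lower in tumors than in activated B cells, where 27.0% of all genes were lower, and all 10 were higher in activated than in quiescent B cells, where 25.5% of all genes were higher. The 7 were CHAC1, ASNS, PHGDH, PSAT1, PSPH, SHMT2 and MTHFD2. They lay between both kinds of control B cell, as 755 of all genes tested did (6.49%). The 3 that did not pass the test against quiescent cells were ATF4 itself, DDIT3 and TRIB3. Levels are CPM, counts scaled by TMM to a common library total. A gene passed the test when its adjusted p was under 0.05 in edgeR's quasi-likelihood test. The tumors of 1 mouse were summed, except where MLN and spleen tumors were compared.

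**Figure D1:**
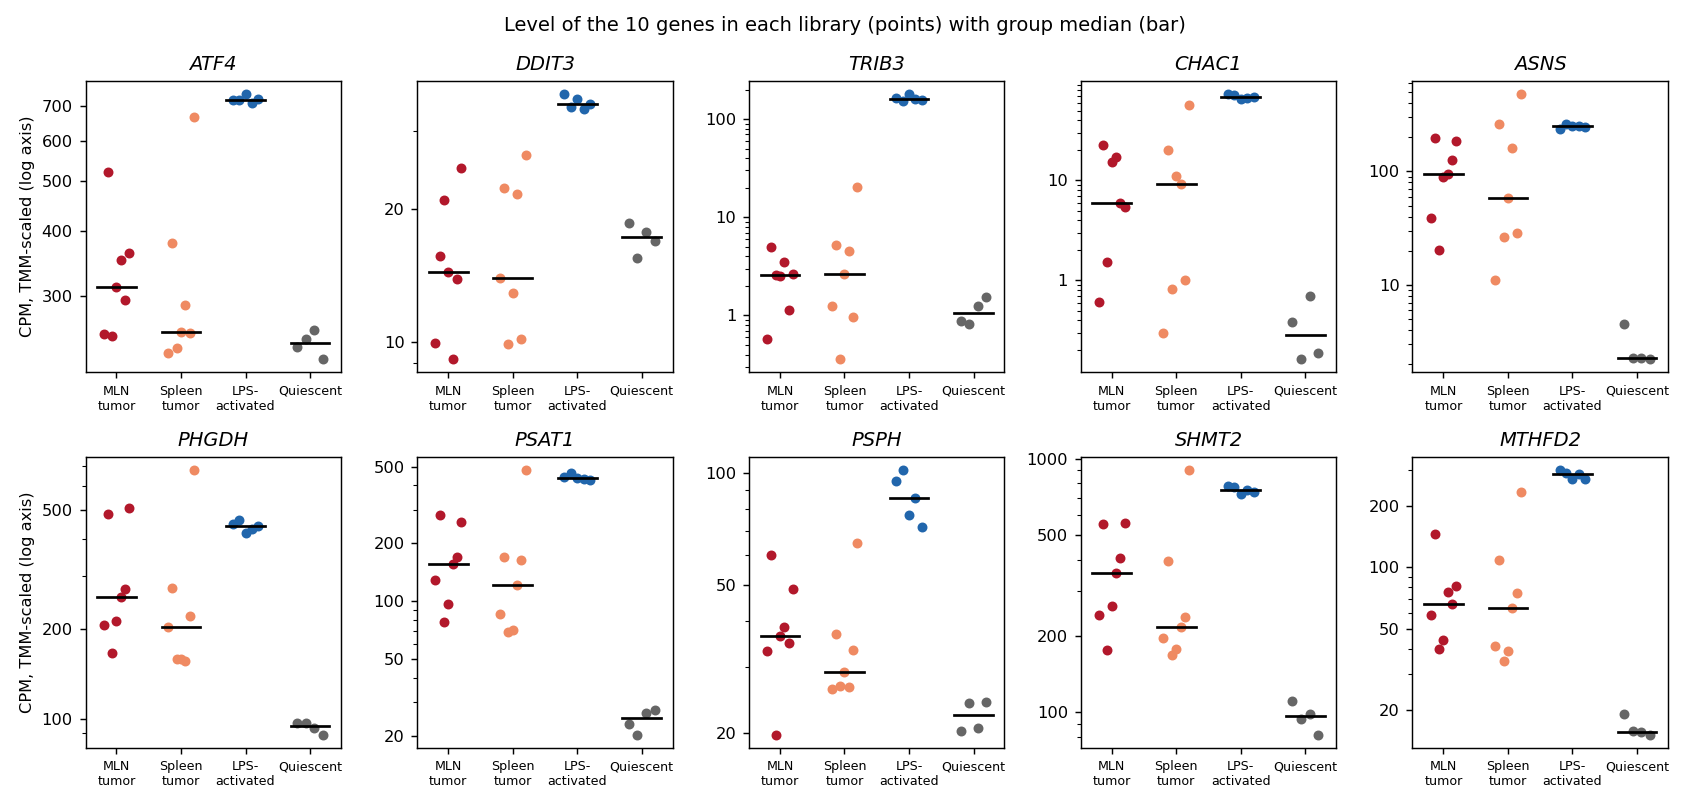
Level of each of the 10 genes in CPM, on log axes that differ between panels, in MLN tumors (n = 7), spleen tumors (n = 7), LPS-activated B cells (n = 5) and quiescent B cells (n = 4); a point is 1 library and a bar the group median. Activated libraries lie close together, for ASNS between 237.9 and 258.5 CPM, while tumors spread widely, for ASNS between 11.1 and 476.5 CPM.

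What the libraries hold bears on every value below. Totals lay between 14712392 and 21897188 estimated counts in MLN tumors, 13328866 and 20091467 in spleen tumors, 20194017 and 25045814 in activated cells and 15529618 and 24226060 in quiescent cells. Within a group, libraries correlated (log2 values) at 0.9227 to 0.9819 in MLN tumors, 0.8878 to 0.9904 in spleen tumors, 0.9965 to 0.9974 in activated cells and 0.9925 to 0.9963 in quiescent cells. Of 8 plasma cell markers, 4 were higher in tumors than in quiescent cells and 7 higher than in activated cells, with none lower. Of 8 mature B cell markers, 0 were higher and 8 lower in tumors than in quiescent cells, and 1 was higher and 4 lower than in activated cells. The summed level of the plasma cell markers was 1225 to 27030 CPM in MLN tumors, 845.5 to 22810 CPM in spleen tumors, 1236 to 1279 CPM in activated cells and 1905 to 2317 CPM in quiescent cells. In 4 tumor libraries, MLN 1611 and spleen 1610, 1612 and 1615, immunoglobulin genes took a smaller share of the counts (0.964% to 1.95%) than in the lowest quiescent library (2.11%). Markers of other cells were present in tumors: all 10 macrophage markers measured were higher than in either control, and their sum was 600.8 to 3314 CPM in MLN tumors, 250.2 to 4232 CPM in spleen tumors, 9.01 to 21.1 CPM in activated cells and 30.1 to 272 CPM in quiescent cells. Against either control, 6 of 6 neutrophil, 6 of 6 erythroid, 6 of 7 T cell and 7 of 8 stromal markers were also higher, and none of the marker genes measured was at 0 in all tumors. The part of these cells in the results below was not tested, and in bulk RNA fewer cells of a type and less RNA per cell cannot be told apart. The mean log2 level of Y-linked genes was 0.496 to 6.15 in MLN tumors (median 5.77), 0.819 to 6.34 in spleen tumors (median 5.21), -0.59 to -0.34 in activated and 6.53 to 6.58 in quiescent libraries. Activation and the sex of the animals therefore cannot be told apart, and since the median tumor lay nearer to the quiescent level, the difference between tumors and activated cells is confounded with sex in part. Every tumor library lay below every quiescent one in this level, some of them far below. The difference between tumors and quiescent cells may thus be confounded with sex in part as well.

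ATF4, the transcription factor itself, was near its quiescent level in many tumors. It was measured at 250.6 to 521.3 CPM in MLN tumors (median 311.7) and at 231.6 to 666.1 CPM in spleen tumors (median 255.4). Activated libraries gave 718.8, 720.3, 738.5, 711.4 and 722.7 CPM, and quiescent libraries 238.8, 246.8, 256.8 and 226.1 CPM. Every tumor library lay below every activated one, 8 of 14 lay above the highest quiescent library, and none below the lowest. The 8 tumor mice averaged 312.9 ± 80.7 CPM and the 4 quiescent libraries 242.1 ± 12.99 CPM (SD). The log2 change of 0.34 ± 0.15 (SE) did not pass the test (edgeR, adjusted p = 0.0574). That call turned with the mice, the scaling and the tool. It was past the threshold without mouse 1609 (0.38, adjusted p = 0.038), 1612 (0.39, 0.0302), 1615 (0.37, 0.0497) or 1616 (0.21, 0.0305). It was also past it with RLE factors (0.41, 0.0265), DESeq2 (0.41, 0.0144), quantile normalization (0.59, 0.000383), MLN tumors alone (0.47, 0.0202) and the Y-linked level as a covariate (0.48, 0.0195), and over all alternatives the adjusted p lay between 0.000383 and 0.14. Against activated cells ATF4 was lower, with a log2 change of -1.17 ± 0.14 (edgeR, adjusted p = 2.56e-06).

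DDIT3, also called CHOP, is a stress transcription factor tied to cell death, and TRIB3 is a pseudokinase induced with it. DDIT3 was at 9.18 to 24.7 CPM in MLN tumors (median 14.4) and 9.91 to 26.5 CPM in spleen tumors (median 14). It was at 36.2, 33.9, 35.4, 33.5 and 34.4 CPM in activated and at 18.6, 15.5, 17.7 and 16.9 CPM in quiescent libraries. Of the tumor libraries, 8 were under the lowest quiescent value and 5 over the highest, and all 14 were under the lowest activated value. Tumor mice averaged 15.5 ± 5.56 CPM against 17.2 ± 1.33 CPM in quiescent cells (SD, n = 8 and 4), a log2 change of -0.18 ± 0.21 (SE; edgeR, adjusted p = 0.464). The interval of 2 SE ran from -0.61 to 0.25, so a modest difference in either direction was not detectable. With quantile normalization the change was -0.64 and passed (limma, adjusted p = 0.0367). Against activated cells DDIT3 was lower by a log2 change of -1.13 ± 0.20 (edgeR, adjusted p = 0.00011).

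TRIB3 separated tumors from activated cells more than any other of the 10 genes. It was at 0.57 to 4.97 CPM in MLN tumors (median 2.61) and 0.362 to 20.3 CPM in spleen tumors (median 2.62). Activated libraries gave 165.5, 152.1, 179.3, 159.4 and 156.8 CPM, and quiescent libraries 0.872, 0.824, 1.25 and 1.56 CPM. The highest tumor library, spleen 1616, was still far under the lowest activated one, and the other 13 were at 5.21 CPM or less. The log2 change of tumor mice was -5.65 ± 0.55 against activated cells (edgeR, adjusted p = 3.62e-07), a 50.1-fold lower level. Without mouse 1616 it was -6.26 (edgeR, adjusted p = 3.88e-09), and it was -4.42 with a pseudocount of 5 CPM and -6.54 with quantile normalization. Against quiescent cells the change was 1.48 ± 0.67 and did not pass the test (edgeR, adjusted p = 0.0612). It passed in 8 of 23 alternatives, among them those without mouse 1609 (adjusted p = 0.0299), 1612 (0.023) or 1615 (0.0397), fell to 0.98 without mouse 1616 (0.101), and changed sign with quantile normalization (-0.46, adjusted p = 0.442).

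CHAC1 encodes an enzyme that breaks down glutathione. It was at 0.613 to 22.8 CPM in MLN tumors (median 5.90) and 0.298 to 57.0 CPM in spleen tumors (median 9.28). It was at 72.7, 70.7, 65.0, 66.2 and 68.6 CPM in activated and 0.382, 0.165, 0.706 and 0.187 CPM in quiescent libraries. All tumors lay under the activated range, and 12 of 14 lay over the quiescent range, the exceptions being MLN 1609 and spleen 1610. Tumor mice averaged 9.57 ± 8.80 CPM against 0.36 ± 0.251 CPM in quiescent cells (SD), a log2 change of 4.71 ± 0.97 (edgeR, adjusted p = 0.000534). The size rests on few quiescent counts and on the scaling: it was 1.95 with quantile normalization and 1.22 with a pseudocount of 5 CPM, both past the threshold. Against activated cells the change was -2.80 ± 0.61 (edgeR, adjusted p = 0.000807), and it missed the threshold with the Y-linked level as a covariate (-3.16, adjusted p = 0.0562). It was -3.42 with limma and -3.85 with quantile normalization.

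ASNS, asparagine synthetase, had the largest change of the 10 genes between tumors and quiescent cells. It was at 20.4 to 196 CPM in MLN tumors (median 94.7) and 11.1 to 476.5 CPM in spleen tumors (median 58.3). Activated libraries gave 237.9, 258.5, 248.4, 249.1 and 244.9 CPM, and quiescent libraries 4.52, 2.27, 2.28 and 2.24 CPM. Every tumor library was above every quiescent one, and spleen 1611 (261.1 CPM) and spleen 1616 exceeded all activated libraries. Tumor mice averaged 107.4 ± 89.6 CPM against 2.83 ± 1.13 CPM in quiescent cells (SD), a log2 change of 5.23 ± 0.64 or 37.4-fold (edgeR, adjusted p = 5.42e-06). Without mouse 1616 it was 4.76 (edgeR, adjusted p = 2.84e-07). The size also rests on the scale, with 3.53 at a pseudocount of 5 CPM, 4.27 with quantile normalization and 5.86 without the 4 libraries low in immunoglobulin. Against activated cells ASNS was lower in tumor mice, with a log2 change of -1.16 ± 0.42 (edgeR, adjusted p = 0.024). This last call was lost with spleen tumors alone (-0.71, adjusted p = 0.417), with 14 libraries taken as independent (-0.97, 0.153) and without the 4 libraries low in immunoglobulin (-0.58, 0.2).

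**Figure D2:**
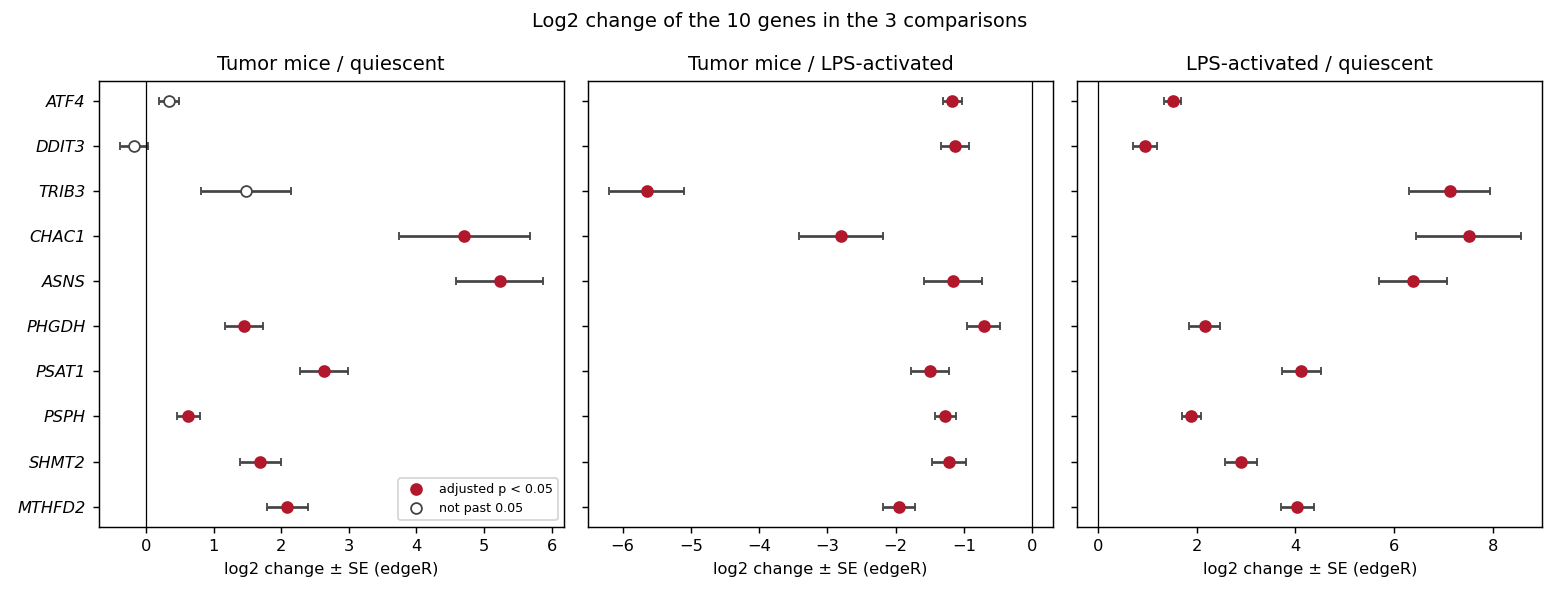
Log2 change of each gene with its SE as edgeR gives it, for tumor mice (n = 8) over quiescent B cells (n = 4), tumor mice over LPS-activated B cells (n = 5) and LPS-activated over quiescent B cells; axes differ between panels. Filled points have an adjusted p under 0.05. In tumors over quiescent cells ASNS and CHAC1 lie farthest right at 5.23 and 4.71, and in tumors over activated cells TRIB3 lies farthest left at -5.65.

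The 3 enzymes of serine synthesis were higher in tumors than in quiescent cells by unequal amounts. PHGDH, the first enzyme of the route, was at 166.1 to 506.4 CPM in MLN tumors (median 256.8) and 156.7 to 678.4 CPM in spleen tumors (median 203.4). It was at 447.6, 461.7, 419.8, 432.8 and 441.6 CPM in activated and 97.0, 96.9, 93.6 and 89.1 CPM in quiescent libraries. All 14 tumors were above the quiescent range, and MLN 1610, MLN 1616 and spleen 1616 were above the activated range. These 3 libraries had the lowest TMM factors, at 0.757, 0.735 and 0.748, against 0.988 to 1.13 in all others. A lower factor raises CPM, so their place above activated cells, for this gene and others, rests in part on the scaling. The log2 change was 1.45 ± 0.28 against quiescent cells (edgeR, adjusted p = 0.000334) and -0.71 ± 0.24 against activated cells (edgeR, adjusted p = 0.0169). The difference from activated cells was -1.09 without mouse 1616, and it missed the threshold with MLN tumors alone (-0.55, adjusted p = 0.0527), spleen tumors alone (-0.69, 0.0904), 14 independent libraries (-0.64, 0.0569) and without the 4 libraries low in immunoglobulin (-0.45, 0.135).

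PSAT1, the transaminase of the second step, was at 78.3 to 279.5 CPM in MLN tumors (median 156.9) and 69.7 to 481.4 CPM in spleen tumors (median 121.9). Activated libraries gave 440.2, 464.5, 439.5, 432.1 and 425.1 CPM, and quiescent libraries 23, 20.4, 26.5 and 27.3 CPM. Tumors and quiescent cells did not overlap, and spleen 1616 was the 1 tumor above the activated range. The log2 change was 2.63 ± 0.35 against quiescent cells (edgeR, adjusted p = 1.4e-05) and -1.49 ± 0.28 against activated cells (edgeR, adjusted p = 0.000233).

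PSPH, the phosphatase that releases serine, moved less. It was at 19.8 to 60.3 CPM in MLN tumors (median 36.4) and 26.2 to 64.7 CPM in spleen tumors (median 29.2). It was at 95.1, 101.9, 77.2, 85.9 and 71.7 CPM in activated and 20.2, 24.0, 20.6 and 24.2 CPM in quiescent libraries. Of 14 tumor libraries 13 lay above the quiescent range, MLN 1611 lay below it, and none reached the activated range. Tumor mice averaged 35.1 ± 9.26 CPM against 22.3 ± 2.13 CPM in quiescent cells (SD), a log2 change of 0.62 ± 0.17 (edgeR, adjusted p = 0.00437). Against activated cells it was -1.27 ± 0.15 (edgeR, adjusted p = 3.09e-06).

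The mitochondrial pair that carries the serine carbon to folate lay between the controls. SHMT2, which splits serine into glycine and a folate-bound carbon, was at 176 to 555.8 CPM in MLN tumors (median 353.4) and 168.7 to 902.7 CPM in spleen tumors (median 216.3). It was at 782.4, 770.0, 722.8, 754.0 and 737.6 CPM in activated and 110.7, 94.3, 98.2 and 81.7 CPM in quiescent libraries. No tumor reached down to the quiescent range, and spleen 1616 alone passed the activated range. The log2 change was 1.69 ± 0.30 against quiescent cells (edgeR, adjusted p = 0.000142) and -1.22 ± 0.25 against activated cells (edgeR, adjusted p = 0.000459).

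MTHFD2, which oxidizes the carbon on folate and is known as an enzyme of dividing and embryonic cells, was at 39.8 to 146.4 CPM in MLN tumors (median 66.3) and 34.8 to 234.6 CPM in spleen tumors (median 63.3). Activated libraries gave 299.7, 290.3, 270.2, 286.7 and 269.6 CPM, and quiescent libraries 19.2, 15.8, 15.8 and 15.3 CPM. All 14 tumors fell between the ranges of the controls. The log2 change was 2.09 ± 0.30 against quiescent cells (edgeR, adjusted p = 2.38e-05) and -1.95 ± 0.24 against activated cells (edgeR, adjusted p = 4.81e-06).

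Counted together, 7 of 10 genes were higher and 0 lower in tumor mice than in quiescent cells, and 6 of them did not overlap. Of all genes tested, 36.9% were higher, 31.9% lower and 24.3% higher without overlap. The median log2 change was 1.58 over the 10 genes and 0.08 over all genes. Against activated cells 10 of 10 genes were lower, 8 without overlap, beside 27.0% of all genes lower and 19.7% lower without overlap. There the median was -1.25 over the 10 genes and 0.09 over all genes. Both comparisons use the same tumor mice, so they are not independent of each other. With the Y-linked level as a covariate the changes against activated cells were larger, among them those of 5 enzymes at -2.25 for ASNS, -1.59 for PHGDH, -2.71 for PSAT1, -2.14 for SHMT2 and -3.03 for MTHFD2, and TRIB3 was at -6.58. That fit called 9 of the 10 genes lower, CHAC1 being the exception, beside 2099 of 11637 genes lower, against 3143 without the covariate. Over all genes it called 5084 in either direction, against 7357. The Y-linked level hardly varied within either control group, so the covariate's slope came mainly from the 8 tumor mice. Activated cells lay below every tumor library in this level and quiescent cells above every one, so the slope was extrapolated to both. The fit therefore cannot tell the part of sex in the changes against either control.

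Between the 2 kinds of control cell, all 10 transcripts were higher after LPS activation, beside 25.5% of all genes higher and 32.1% higher without overlap, and for none of the 10 did activated and quiescent libraries overlap. The median log2 change was 3.47 over the 10 genes and -0.15 over all genes. The largest changes were those of CHAC1 (7.51 ± 1.07, SE), TRIB3 (7.13 ± 0.82) and ASNS (6.39 ± 0.69). PSAT1 (4.12 ± 0.40), MTHFD2 (4.04 ± 0.34), SHMT2 (2.90 ± 0.33), PHGDH (2.16 ± 0.31) and PSPH (1.89 ± 0.19) followed, then ATF4 (1.51 ± 0.17) and DDIT3 (0.95 ± 0.24). The highest adjusted p among them was that of DDIT3 (edgeR, 0.00276). The size and order of the first 3 rest on the scale. They were at 3.77 for CHAC1, 4.75 for TRIB3 and 4.99 for ASNS with a pseudocount of 5 CPM, where PSAT1 was at 3.88, and at 5.80, 6.08 and 5.74 with quantile normalization.

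Placed on the log2 scale between the mean of quiescent cells (0%) and the mean of activated cells (100%), tumor mice stood at different points for different genes. The median mouse was at 73.9% for ASNS, 58.6% for PSAT1, 55.8% for CHAC1, 51.7% for PHGDH, 50.4% for SHMT2 and 49.9% for MTHFD2. It was at 29.3% for PSPH, 18% for ATF4 and 14.6% for TRIB3. For DDIT3 it was at -26.6%, on the far side of quiescent cells. Within each gene the mice spread widely, for ASNS between 49.1% and 105% and for CHAC1 between 6.52% and 79.6%.

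Ordered by group medians, 9 of the 10 genes ran from quiescent cells at the low end through the tumors to activated cells at the high end. DDIT3 was the exception, with spleen and MLN tumors (medians 14 and 14.4 CPM) below quiescent cells (17.3 CPM) and their ranges overlapping. MLN and spleen ranges overlapped for all 10 genes. Quiescent cells and the nearest tumor group overlapped for ATF4, TRIB3, CHAC1 and DDIT3 and did not for the other 6. For PSPH the nearest group was the spleen tumors, and MLN 1611 fell below the quiescent range. This order and these overlaps were taken for the 10 genes alone. No share of all genes stands beside them, so they do not set the 10 genes apart from others.

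**Figure D3:**
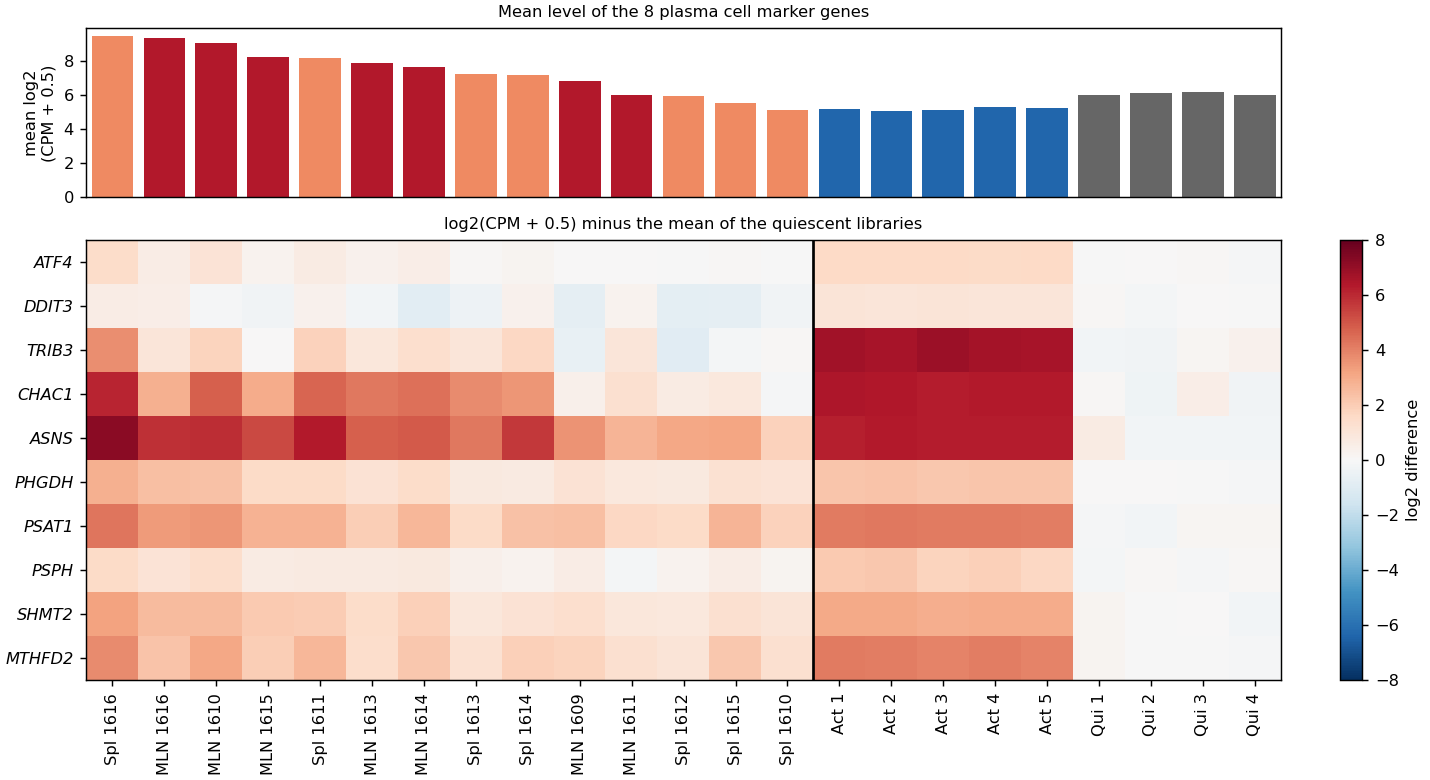
Top, mean log2(CPM + 0.5) of the 8 plasma cell markers in each library, colored by group (MLN tumors dark red, spleen tumors orange, activated blue, quiescent gray); below, log2(CPM + 0.5) of the 10 genes minus the mean of the quiescent libraries, with tumors ordered by the plasma cell markers. Tumors at the left, led by spleen 1616, have the higher ASNS and CHAC1 values, and activated libraries are high in all 10 genes although their plasma cell markers are low.

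Of the 10 genes, ASNS alone had ranges that did not meet when tumor libraries were split by their immunoglobulin share. In the 4 tumor libraries low in immunoglobulin, ASNS was at 11.1 to 28.5 CPM, against 38.6 to 476.5 CPM in the other 10, and the ranges did not meet. CHAC1 was at 0.298 to 1.54 CPM in the 4 and 0.613 to 57.0 CPM in the other 10, and ATF4 was at 231.6 to 253.8 CPM in the 4 and 252.1 to 666.1 CPM in the other 10. PHGDH was at 159.4 to 221 CPM in the 4 and 156.7 to 678.4 CPM in the other 10. DDIT3 was at 9.91 to 21.0 CPM in the 4 and 9.18 to 26.5 CPM in the other 10. In the same order, TRIB3 was at 0.362 to 2.61 and 0.57 to 20.3 CPM, and PSAT1 at 69.7 to 164.8 and 71.45 to 481.4 CPM. PSPH was at 19.8 to 33.4 and 26.6 to 64.7 CPM, and SHMT2 at 168.7 to 236.8 and 176.9 to 902.7 CPM. MTHFD2 was at 34.8 to 74.75 and 39.0 to 234.6 CPM. For every gene but ASNS the ranges overlapped. No share of all genes stands beside this split, so it does not set ASNS apart from genes outside the 10. Mature B cell markers moved with this split too: their mean log2 level was 9.60 to 9.98 in the 4 and 3.40 to 9.19 in the other 10, against 9.56 to 9.69 in activated and 10.49 to 10.53 in quiescent libraries. Without these 4 libraries 9 of the 10 genes were higher in tumors than in quiescent cells, ATF4 (0.59, edgeR, adjusted p = 0.0101) and TRIB3 (1.89, 0.0092) included, beside 38.6% of all genes higher. In the same fit 8 were lower than in activated cells, beside 28.2% of all genes lower. The part of plasma cell and B cell content in these differences was not tested.

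Across the 8 tumor mice the 10 transcripts varied together. Pearson's r of log2 levels with ATF4 lay between 0.82 and 0.93 for the other 9 genes, with MYC between 0.81 and 0.97, and with the mean of the plasma cell markers between 0.79 and 0.95 for all 10. All 29 relations passed an exact 2-sided permutation test after Benjamini-Hochberg adjustment over the 29 (highest adjusted p = 0.0208). By Spearman's rho 3 of 9, 6 of 10 and 1 of 10 passed. High r was also common among other genes: 14.7%, 14.7% and 15.3% of all genes reached the lowest r of the 10 with ATF4, MYC and the plasma cell list, while the median gene had r of -0.10, -0.09 and -0.08.

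With ATF4 the relation was closest for SHMT2 (r = 0.93, adjusted exact permutation p = 0.00762; rho = 0.81, adjusted exact permutation p = 0.0574), PHGDH (r = 0.92, adjusted exact permutation p = 0.00762; rho = 0.69, adjusted exact permutation p = 0.0915), TRIB3 (r = 0.91, adjusted exact permutation p = 0.00719; rho = 0.93, adjusted exact permutation p = 0.0216) and ASNS (r = 0.91, adjusted exact permutation p = 0.00762; rho = 0.93, adjusted exact permutation p = 0.0216). Without mice 1612 and 1616, the lowest and highest in ATF4, r stayed at 0.80 for TRIB3, 0.76 for CHAC1, 0.72 for ASNS and 0.66 for DDIT3. It was 0.56 for SHMT2, 0.53 for PHGDH and 0.52 for MTHFD2. For PSPH (0.25) and PSAT1 (0.22) the relation with ATF4 rested on those 2 mice. For MYC, without mice 1609 and 1616, r was 0.94 for ATF4, 0.93 for SHMT2, 0.91 for MTHFD2, and 0.66 at the lowest, for DDIT3 and PSPH. With the plasma cell markers, and without mice 1612 and 1616, r was 0.81 for ATF4 and 0.78 for CHAC1 but 0.20 for MTHFD2 and 0.05 for PSAT1, so for the last pair it rested on those 2 mice.

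**Figure D4:**
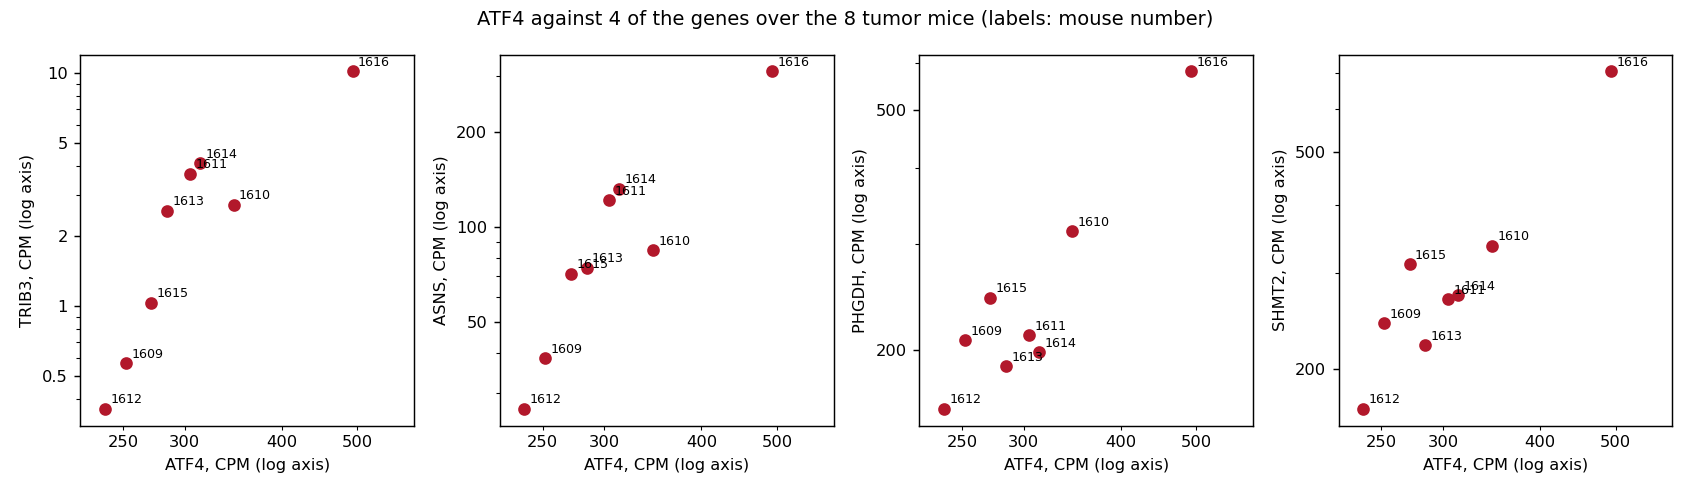
Level of TRIB3, ASNS, PHGDH and SHMT2 against ATF4 in CPM on log axes; a point is 1 tumor mouse (n = 8) with its tumors summed and its number beside it. Mouse 1616 is highest and mouse 1612 lowest on every axis shown, and the other 6 mice follow ATF4 more closely for TRIB3 and ASNS (r = 0.80 and 0.72 without those 2) than for PHGDH and SHMT2 (0.53 and 0.56).

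Among the 10 genes themselves, r over the 14 tumor libraries lay between 0.27 and 0.97 over 45 pairs, with a median of 0.77. The 9 pairs with DDIT3 had a median of 0.48 and a range of 0.27 to 0.71. These libraries share mice and scaling, so the values are a description. Over all 23 libraries the genes whose log2 levels ran most like ASNS were SLC7A5 (r = 0.984), FADS2 (0.961), SLC6A9 (0.959), BBC3 (0.959) and METTL9 (0.957). For ATF4 they were CTH (0.956), EIF3C (0.953, a profile shared with EIF3CL), EIF1AD (0.952), CLIC4 (0.95) and FDFT1 (0.949). For PHGDH they were COPS7A and CDV3 (0.972 each), PSMA7 (0.968), EEF1G (0.963) and ALDH18A1 (0.963). SLC7A5 is an importer of large neutral amino acids, CTH makes cysteine, and ALDH18A1 is the first enzyme of proline synthesis. The other genes of these lists are given without their functions, and a shared function was not tested. Tumor and control libraries were pooled here, so r also carries the differences between groups.

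Between MLN and spleen tumors no gene passed an edgeR test of 7 against 7 libraries. This test had no mouse term although 6 mice gave both tumors, so it and its intervals were unpaired. It called 0 of 10, beside 0% of all genes, and 0 of the 10 against 511 of all genes had an unadjusted p under 0.05 (edgeR). DESeq2 called 20 genes, with 0 of the 10 among them, and limma on log2(CPM + 0.5) called 0. The widest interval of 2 SE was that of CHAC1, with a log2 change of -0.55 between -2.58 and 1.47, and the narrowest were those of PSPH (0.14, between -0.36 and 0.64) and ATF4 (0.00, between -0.51 and 0.51), so sizable differences between the sites were not detectable for CHAC1, TRIB3 and ASNS.

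Tumors of 1 mouse nevertheless differed a great deal, in no constant direction. ASNS was at 196 CPM in the MLN and 11.1 CPM in the spleen tumor of mouse 1610, a log2 difference of 4.08. In mouse 1611 it was at 20.4 CPM in the MLN and 261.1 CPM in the spleen tumor, a difference of -3.64. CHAC1 was at 22.8 CPM in the MLN and 0.298 CPM in the spleen tumor of mouse 1610 and at 1.54 CPM in the MLN and 20.2 CPM in the spleen tumor of mouse 1611. In 6 of 6 mice the tumor with the higher plasma cell markers had the higher ATF4, CHAC1, PHGDH, PSAT1, PSPH and SHMT2. That tumor had the higher DDIT3, ASNS and MTHFD2 in 5 of 6 mice and the higher TRIB3 in 4 of 6. No share of all genes stands beside these counts, so they do not set these genes apart from others. The mean of the markers differed by 3.91 on the log2 scale in mouse 1610, -2.18 in mouse 1611 and -0.07 in mouse 1616. Mouse 1616 thus had nearly equal markers in both tumors, so its direction in the counts above says little. Its TRIB3 was nevertheless at 2.62 CPM in the MLN and 20.3 CPM in the spleen tumor. Its CHAC1 was at 5.47 CPM in the MLN and 57.0 CPM in the spleen tumor.

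**Figure D5:**
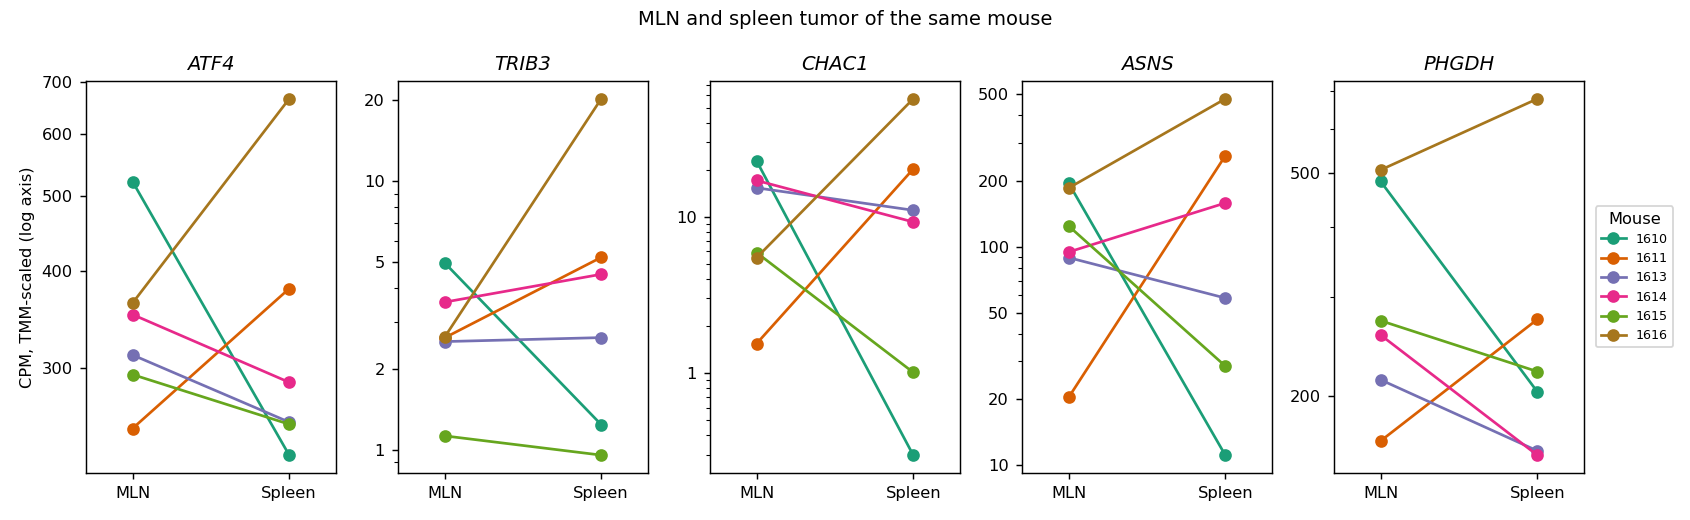
Level of 5 of the genes in CPM on log axes in the MLN and the spleen tumor of the 6 mice that gave both; a line joins the tumors of 1 mouse. The lines of mice 1610 and 1611 cross in every panel, as for ASNS at 196 CPM (MLN) and 11.1 CPM (spleen) in mouse 1610 and 20.4 CPM (MLN) and 261.1 CPM (spleen) in mouse 1611.

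Upstream of ATF4, genes of the eIF2 pathway were higher than in quiescent cells more often than lower. Of 16 genes tested (kinases, subunits, exchange factor and phosphatase regulators), 10 were higher and 1 lower than in quiescent cells, and 2 were higher and 6 lower than in activated cells, with median log2 changes of 0.40 and -0.28. Those are 62.5% higher and 6.25% lower than in quiescent cells, beside 36.9% and 31.9% of all genes, and 12.5% higher and 37.5% lower than in activated cells, beside 36.2% and 27.0% of all genes, whose medians were 0.08 and 0.09. In activated against quiescent cells 9 were higher and 1 lower, where 25.5% of all genes were higher and 34.1% lower. EIF2AK1, the heme-regulated kinase, was the gene higher against both controls, at 118 ± 9.05 CPM in tumor mice, 87.4 ± 1.66 CPM in activated and 88.4 ± 3.24 CPM in quiescent cells (SD), with log2 changes of 0.47 (edgeR, adjusted p = 8.84e-06) and 0.39 (edgeR, adjusted p = 0.000133). EIF2AK3, the kinase of the endoplasmic reticulum also called PERK, was at 145.7 ± 58.1 CPM in tumor mice, 55.6 ± 2.48 CPM in activated and 131 ± 4.49 CPM in quiescent cells (SD). Its log2 change in tumors was 1.42 against activated cells (edgeR, adjusted p = 3.36e-05), where all 10 genes were lower. It was -1.30 in activated against quiescent cells (edgeR, adjusted p = 0.000225), where all 10 were higher. Between tumors and quiescent cells its change of 0.12 did not pass the test (edgeR, adjusted p = 0.629). EIF2AK4, the kinase that senses uncharged tRNA (GCN2), was lower in tumors than in quiescent cells (-0.52, edgeR, adjusted p = 0.0198). EIF2AK2, the remaining kinase, was at 40.7 ± 28.35 CPM in tumor mice, 68.9 ± 6.13 CPM in activated and 10.23 ± 2.025 CPM in quiescent cells (SD). Its log2 change was 1.97 against quiescent cells (edgeR, adjusted p = 0.000894) and -0.72 against activated cells (edgeR, adjusted p = 0.0854).

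Other known ATF4 targets were mostly higher in tumors than in quiescent cells. Of 33 tested, 27 were higher and 2 lower in tumors than in quiescent cells, with a median log2 change of 1.95. Against activated cells 4 were higher and 15 lower, with a median of -0.69, and 13 lay between the controls, as 6.49% of all genes did. The list thus had 81.8% higher and 6.06% lower than in quiescent cells, beside 36.9% and 31.9% of all genes (median 0.08), and 12.1% higher and 45.5% lower than in activated cells, beside 36.2% and 27.0% of all genes (median 0.09). In activated against quiescent cells 24 were higher and 1 lower, beside 25.5% and 34.1% of all genes. STC2, a secreted glycoprotein, was at 12.95 ± 16.9 CPM in tumor mice and 0.24 ± 0.347 CPM in quiescent cells (SD), with a log2 change of 5.72 (edgeR, adjusted p = 0.000629), and PYCR1, the last enzyme of proline synthesis, at 81.7 ± 79.2 CPM in tumor mice and 1.91 ± 0.332 CPM in quiescent cells, with 5.38 (edgeR, adjusted p = 1.3e-05). ADM2, a peptide hormone, had 538 counts over all tumors and 1 over all quiescent libraries, a ratio of 167 with a 95% counting interval of 29.9 to 6610. Spleen tumor 1616 alone held 352 of the 538, the next tumor library 74 and the median library 9. Without it, a choice made after seeing the data, the ratio was 60.2 with an interval of 10.7 to 2390. CTH followed TRIB3 in being far below activated cells, at 4.89 ± 6.55 CPM in tumor mice and 70.3 ± 3.18 CPM in activated cells (SD; log2 change -3.81, edgeR, adjusted p = 2.13e-05).

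HMOX1, CBS and NUPR1 were the only 3 of the 33 targets tested that were higher against both controls. HMOX1, which degrades heme and is abundant in macrophages, was at 140.9 ± 84.6 CPM in tumor mice, 19.8 ± 3.31 CPM in activated and 10.8 ± 9.76 CPM in quiescent cells (SD). CBS, the first enzyme of transsulfuration, was at 5.65 ± 7.32 CPM in tumor mice, 0.24 ± 0.162 CPM in activated and 0.842 ± 0.392 CPM in quiescent cells. NUPR1, a small stress-induced nuclear protein, was at 7.74 ± 6.36 CPM in tumor mice, 1.88 ± 0.83 CPM in activated and 1.35 ± 1.36 CPM in quiescent cells. Their log2 changes were 2.87, 4.59 and 2.08 against activated cells and 3.69, 2.71 and 2.48 against quiescent cells (edgeR, highest adjusted p = 0.0242). Macrophage markers were higher in the same libraries, and their part in these values was not tested.

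Beyond SHMT2 and MTHFD2, the serine, glycine and folate genes were less uniform. Of 29 tested, 19 were higher and 6 lower in tumors than in quiescent cells, 4 were higher and 11 lower than in activated cells, and 16 were higher and 6 lower in activated than in quiescent cells. The median log2 changes of tumors were 0.84 and -0.10, beside 0.08 and 0.09 over all genes. In shares, 65.5% were higher and 20.7% lower in tumors than in quiescent cells, beside 36.9% and 31.9% of all genes. Against activated cells 13.8% were higher and 37.9% lower, beside 36.2% and 27.0% of all genes. In activated against quiescent cells 55.2% were higher and 20.7% lower, beside 25.5% and 34.1% of all genes. ALDH1L2, which oxidizes formyl-folate in mitochondria, was at 19.5 ± 32.0 CPM in tumor mice and 0.602 ± 0.159 CPM in quiescent cells (SD; log2 change 4.99, edgeR, adjusted p = 0.0012). GCAT, of threonine and glycine breakdown, was at 17.4 ± 10.2 CPM in tumor mice and 0.84 ± 0.475 CPM in quiescent cells (4.33, adjusted p = 8.84e-06). MTHFD1L, which releases formate from mitochondria, and TYMS, thymidylate synthase, were lower than in activated cells, with log2 changes of -1.68 and -1.64 (edgeR, adjusted p = 1.15e-10 and 1.04e-06). SDSL, a serine dehydratase-like enzyme, had 611 counts over all tumors and 0 over activated libraries, which makes it at least 94.9-fold higher against a floor of 3 counts over the group, and 2 over quiescent libraries, a ratio of 94.9 with a 95% counting interval of 26.1 to 785. Spleen tumor 1611 held 274 of the 611, the next tumor library 209 and the median library 5.5. Without spleen 1611 SDSL was at least 56.2-fold higher than in activated cells, and the ratio to quiescent cells was 56.1 (15.4 to 465). GGH, which trims folate chains, and SLC46A1, a folate importer, were higher in tumors by 2.09 and 1.89 against activated cells and by 2.14 and 2.05 against quiescent cells on the log2 scale (edgeR, highest adjusted p = 0.00663).

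The list around asparagine synthetase held aspartate, asparagine and glutamine genes. Of 13 tested, 6 were higher and 1 lower in tumors than in quiescent cells, and 4 were higher and 3 lower than in activated cells, with medians of 0.52 and -0.17, and 6 were higher and 2 lower in activated than in quiescent cells. The shares higher in tumors were 46.2% against quiescent and 30.8% against activated cells, and 23.1% were lower than in activated cells. These shares were near those of all genes (36.9%, 36.2% and 27.0%), so they say little about the list. The share lower than in quiescent cells was 7.69%, beside 31.9% of all genes. In activated against quiescent cells 46.2% were higher and 15.4% lower, beside 25.5% and 34.1% of all genes. SLC1A3, an importer of aspartate and glutamate, was at 5.02 ± 1.86 CPM in tumor mice, 0.0749 ± 0.167 CPM in activated and 0.697 ± 0.454 CPM in quiescent cells (SD), with log2 changes of 5.98 (edgeR, adjusted p = 2.49e-05) and 2.81 (adjusted p = 0.00459). ASS1, which joins aspartate to citrulline, was at 42.8 ± 13.1 CPM in tumor mice, 15.95 ± 1.015 CPM in activated and 12.2 ± 2.41 CPM in quiescent cells (SD; log2 changes 1.46 and 1.78, edgeR, highest adjusted p = 1.15e-05). GLUL, which makes glutamine, was higher than in activated cells (1.13, edgeR, adjusted p = 0.00455) and did not pass the test against quiescent cells (0.52, adjusted p = 0.168). Between MLN and spleen tumors 0 genes passed in any of the 4 lists.

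MYC, part of the model's transgene set and a known regulator of serine and one-carbon genes, was at 409.1 to 1737 CPM in MLN tumors and 311.8 to 2110 CPM in spleen tumors. It was at 212.1 to 230.6 CPM in activated and 61.4 to 75.5 CPM in quiescent cells, so every tumor exceeded every activated library in MYC. Above the highest activated library lay 2 of 14 tumor libraries for ASNS, 3 for PHGDH, 1 for PSAT1 and 1 for SHMT2. None did so for ATF4, DDIT3, TRIB3, CHAC1, PSPH or MTHFD2. The part of MYC in the levels of the 10 genes was not tested. The proliferation marker MKI67 was at 229.8 to 733.6 CPM in MLN tumors, 362.5 to 1092 CPM in spleen tumors, 268.2 to 380.6 CPM in activated and 22.97 to 25.6 CPM in quiescent cells.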

How the data were processed

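The authors deposited 1 table of estimated counts (it is titled TPM, but values are not whole and totals differ between libraries). Per the submitters' processing notes, Trim Galore 0.4.0, DESeq2 and build GRCm39 were used. The quantifier, its handling of pseudogene copies and the step from mouse genes to human symbols are unknown here. Identical entries were merged (15881 profiles left), and 11637 genes reaching 1 CPM in 4 or more libraries entered the tests. Rounded values were tested with edgeR 4.0.16 (quasi-likelihood, TMM, 2-sided) in R 4.3.3, with Benjamini-Hochberg adjustment over all genes and a threshold of 0.05. Alternatives used limma 3.58.1 and DESeq2 1.42.0. SE is the size of the log2 change over the root of edgeR's F statistic. CPM of a mouse is its summed counts over the summed TMM-scaled totals of its tumors. Correlations used log2(CPM + 0.5) and exact permutation tests. Intervals of counts cover counting error only.

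Tumors with the same number are from 1 mouse, per the series' design text, and were summed except where MLN and spleen tumors were compared. Deviations of paired tumors from their site means correlated at -0.17, -0.35, 0.39, -0.26, -0.48 and 0.7 for mice 1610, 1611 and 1613 to 1616. The 10 genes, the pathway and marker lists and the naming rule (per list, the 3 largest changes shared against both controls, then the 3 largest of a single comparison) were chosen with earlier results of these data known. GDF15 and FGF21, ATF4 targets on the list, did not pass the filter on low values. EIF2AK2, EIF2AK4, MTHFD1L and TYMS were named after their values were seen.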

Additional observations from a re-analysis of the deposited data

Results flagged for a closer look

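In groups of 4 to 10 samples, a value was singled out when its gap to the nearest other, on the log2 scale, took up more of the group's range than chance allows in 1 of 20 groups. Of 50 groups of the 10 genes tested, 4 had such a value, where chance gives about 1 in 20. Spleen tumor 1616 stood apart for PHGDH, at 678.4 CPM with the next spleen tumor at 273.8 CPM, and for PSPH, at 64.7 CPM with the next at 36.9 CPM. Quiescent library 1 stood apart for ASNS, at 4.52 CPM with the next quiescent library at 2.28 CPM, and for MTHFD2, at 19.2 CPM with the next at 15.8 CPM. Among the 8 tumor mice none stood apart on this scale, but with the mice scaled by TMM factors of their own, a choice made after seeing the data, mouse 1616 did for ATF4 (515.9 CPM, next 341.6 CPM), PSPH (58.2 CPM, next 39.2 CPM) and SHMT2 (737 CPM, next 331.7 CPM). The cause was not tested.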

How the results depend on the processing

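The number of the 10 genes called was 7 to 9 against quiescent and 8 to 10 against activated cells over all alternatives, 10 of 10 between activated and quiescent cells, and 0 between MLN and spleen tumors. Quantile normalization moved the median of all genes to -0.11 and -0.12 (log2) against quiescent and activated cells and turned the split of calls over all genes to 2841 higher and 4304 lower, and 2544 higher and 4146 lower, against 4289 and 3709, and 4214 and 3143, with TMM. It also gave TRIB3 -0.46 against quiescent cells and DDIT3 -0.64 (adjusted p = 0.0367), and took PSPH's relations with ATF4 (r = 0.62) and MYC (0.58) over the threshold. With the Y-linked level as covariate DDIT3 was at 0.0042. Without the 4 libraries low in immunoglobulin ASNS and PHGDH no longer differed from activated cells by the test.

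No change between MLN and spleen tumors passed the test, and several changed sign. Leaving out 1 library gave -0.11 to 0.31 for ATF4, -0.25 to 0.06 for DDIT3, -1.21 to 0.06 for TRIB3, -0.90 to 0.48 for CHAC1, -0.68 to 0.25 for ASNS, -0.15 to 0.58 for PSAT1 and -0.48 to 0.30 for MTHFD2. ATF4 was at -0.0013 with no filter, and ATF4 and SHMT2 at -0.19 and -0.10 without the 4 libraries low in immunoglobulin. CHAC1, ASNS and PSAT1 were at 0.09, 0.20 and 0.23 with quantile normalization and 0.19, 0.22 and 0.19 with limma. With a pseudocount of 5 ASNS and PSAT1 were at 0.16 and 0.18. PSAT1 was at 0.0021 with RLE factors and 0.002 with DESeq2. With the mouse as a replicate block CHAC1, ASNS and PSAT1 were at 0.42, 0.15 and 0.08; the block called 0 genes and changed no call. Activated and quiescent libraries share only a number: a block on it left 10 of 10 genes called and gave 8426 calls over all genes, against 6925 without it. The causes were not tested.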
